A study of Cervus nippon with 40 samples.

Results

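The lung of the Sika Deer (Cervus nippon) was described from its 4 small RNA libraries, 1 for each stage: juvenile at 1 year of age, adolescence at 3, adult at 5 and aged at 10. They were chosen by their organ label from 40 libraries and set beside the other 36, which came from adrenal, antler, brain, heart, kidney, liver, muscle, spleen and testes. A library pooled the RNA of 3 animals, the 10 organs of a stage came from the same deer, and no treatment or genotype separated the groups. A stage was thus 1 pool of 3 deer in every organ, so stage and deer cannot be told apart, and an SD over the 4 lungs holds stage, deer and library together. The values are RPM, the reads of a miRNA in 1000000 miRNA reads of its library, for names that miRBase gives in cattle (bta-), and a name with no read was not listed. The lungs held 1046331, 650219, 767270 and 1042238 miRNA reads from juvenile to aged, so 1 read stood for 0.956, 1.54, 1.3 and 0.959 RPM.

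A miRNA is a short RNA that guides a protein complex to messenger RNAs that pair with its first bases, and lowers their output. The lung is built of gas-exchanging and ciliated epithelium, a dense bed of capillaries, smooth muscle around airways and vessels, fibroblasts and resident blood cells, and each of these has its known miRNAs. A bulk library reads their sum, so a lower value can come from fewer cells of a type or from less RNA per cell, which cannot be told apart.

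let-7b and miR-26a led every lung library. With near-identical names counted once, these 2 held 60.7%, 70.7%, 69.9% and 65.4% of the miRNA reads in the juvenile, adolescence, adult and aged lung, beside 26.3% to 97% for the 2 leading names of the other libraries. Brain had a like share under the same 2 names, 51.5% to 72.8%, and in no other organ did they pass 43.9%. let-7b, a repressor of growth genes that rises as cells differentiate, made up 52.6%, 13.8%, 52.4% and 59.4%, so 3 of the 4 lungs were close and the adolescence lung was far below them. miR-26a, which is known to repress the chromatin enzyme EZH2, made up 8.07%, 56.9%, 17.5% and 6.03%, with the adolescence lung as far above. The mean of the other 9 organs was 19.5% for let-7b and 5.34% for miR-26a, so lung ranked second among the 10 organs in the former, after brain, and first in the latter. Both ranks turned on the adolescence lung: without it lung was first in let-7b (54.8%, brain 47.1%) and in miR-26a it fell behind brain and spleen (10.5%, against 14.5% and 11%). In that case the mean as listed was 320550 ± 23617 RPM for let-7b and 61221 ± 34452 RPM for miR-26a (SD, n = 3), against 260130 ± 122360 and 127190 ± 134910 RPM over all 4. Counting names once matters here because let-7b had the same reads as miR-3596 in all 40 libraries, and miR-26a and miR-26c had equal reads in 22. In all, 40.38% to 42.87% of the lung reads stood under such a second name.

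**Figure D1:**
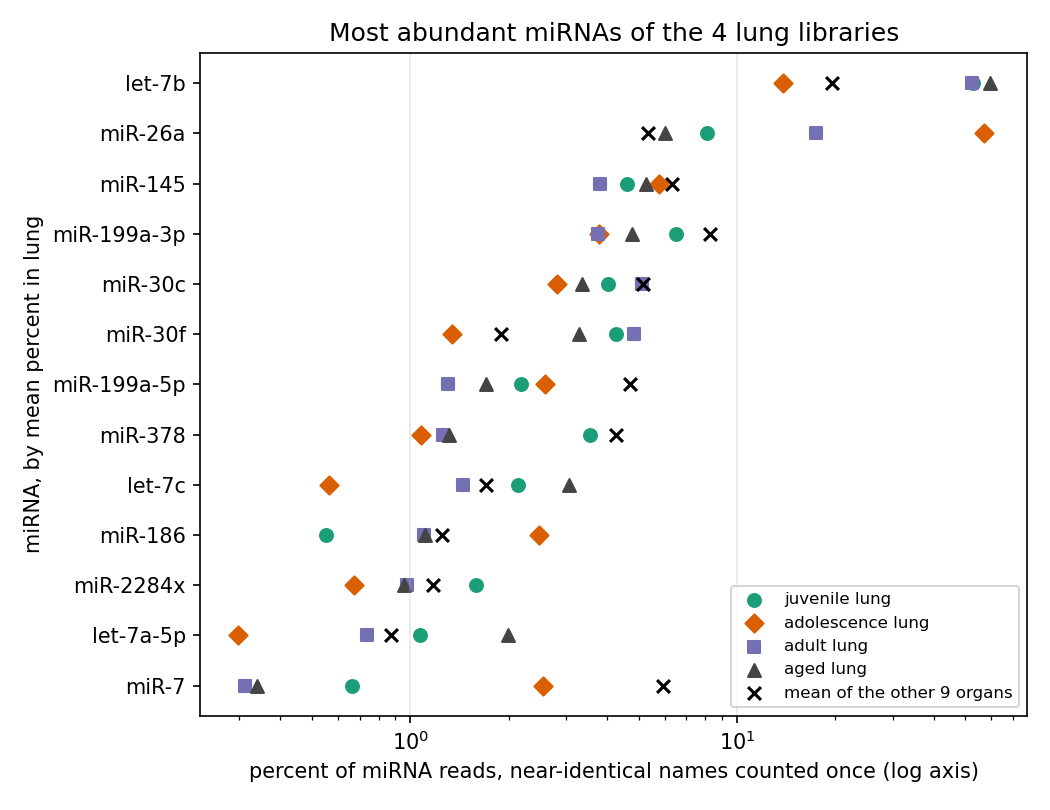
Percent of miRNA reads (log axis, near-identical names counted once) of the 13 miRNAs with the highest mean percent in lung, with 1 point for each lung library and a cross for the mean of the other 9 organs. The adolescence lung (orange) is low for let-7b at 13.8% and high for miR-26a at 56.9%, while miR-145 and miR-199a-3p lie close together in the 4 lungs.

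Below these came miRNAs that changed less between the lungs. miR-145, which keeps smooth muscle cells contractile, made up 4.6%, 5.76%, 3.81% and 5.28%. miR-199a-3p, a miRNA of fibroblasts and other mesenchymal cells, made up 6.49%, 3.78%, 3.75% and 4.76%, and miR-30c 4.02%, 2.81%, 5.13% and 3.35%. None of these 3 spanned more than a factor of 1.83 between lungs in RPM, whereas let-7b spanned 4.4 and miR-26a 9.2. The 10 most abundant names held 89.5%, 93.1%, 92.6% and 90.1% of a lung library, against a median of 88.2% in the other organs (80.2% to 99.6%). Of the 13 names that reached the top 10 of any lung, 8 did so in all 4: let-7b, miR-26a, miR-199a-3p, miR-145, miR-30f, miR-30c, miR-378 and miR-199a-5p. The largest moves in rank were those of miR-7 and let-7a-5p, by 13 places each. miR-7, a miRNA best known from neurons and endocrine cells, was 15th, 7th, 18th and 20th. let-7a-5p was 12th, 21st, 13th and 8th. The adolescence lung was thus the extreme for both.

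The tail was long and thin. Of 305 known names, 194 had a read in at least 1 lung, 114 had one in all 4, and 44 were listed in a single lung with at most 9 reads. Names with at least 10 reads numbered 90, 81, 76 and 93 from juvenile to aged. Only miR-181b, miR-224 and miR-23b-5p were listed in lung and in no other organ, and these had 4 reads between them. At this depth lung thus had no known miRNA of its own above the counting floor, and predicted miRNAs were not examined. The floor, taken as 3 reads in a library, was 2.87, 4.61, 3.91 and 2.88 RPM in the 4 lungs and covers counting error only.

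The miRNAs known to mark the cell types of lung were unevenly present. Of the smooth muscle pair, miR-145 was at 28250 RPM (21870 to 32890) while its cluster partner miR-143 had 8 reads in the 4 lungs. Fibroblast miRNAs of the group of miR-199 and miR-214 summed to 52350 to 94440 RPM as listed. This sum counts miR-199a-3p and its near-identical second name miR-3604, at a mean of 27410 RPM each, as separate miRNAs. The red cell miRNA miR-486 stood at 2180 to 8599 RPM, but miR-451, the other red cell miRNA, had 2 reads. The endothelial miR-126-3p reached only 2.87 to 28.8 RPM, which was still second among the 10 organs. Of the epithelial miR-200 family, miR-200b had 22 reads in the 4 lungs and miR-429 none, a summed 3.08 to 7.68 RPM, rank 3 among organs. The ciliated cell miRNAs, miR-34a, miR-449a and miR-449c, summed to at most 7.69 RPM, and was at 0 in the adult and aged lung. White blood cell miRNAs summed to 64 RPM in the juvenile, 393.7 in the adolescence, 80.8 in the adult and 185.2 in the aged lung. Within lung, miR-145 and the fibroblast group were thus abundant, while the epithelial and ciliated markers lay at or near the floor. Among the 10 organs, however, lung was only 6th for the smooth muscle pair and 7th for the fibroblast group, with both names of miR-199a-3p in the sum. For the ciliated cell miRNAs it was 2nd, but on only 4 reads of miR-34a and 1 each of miR-449a and miR-449c, too few for a rank to mean much. Of other organs' miRNAs, the neuronal group summed to at most 5.76 RPM, and miR-206, miR-208a, miR-208b and miR-499 of striated muscle had no read in any lung.

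To ask which miRNAs set lung apart, lung was compared with the mean of the other 9 organs in 1 limma model with organ and stage, on log2(RPM + 1) after TMM scaling, which rescales each library to keep the bulk of miRNAs level. Of 124 tested miRNAs, 16 were called (12.9%) at an adjusted p below 0.01 and a log2 difference above 1 in size, and 38 had an unadjusted p below 0.05. Of all those tested, 6.45% were called higher and 6.45% lower, 8 names each. The higher names were miR-1468, miR-490, miR-452, miR-30f, miR-3432a, let-7b with its second name miR-3596, and miR-151-5p, and the lower ones were miR-424-5p, miR-1, miR-133a, miR-133b, miR-133c, miR-193b, miR-95 and miR-378c. All 16 lay on the same side of the other organs at each of the 4 stages. The 16 include miR-1468, which had been chosen for its level in lung. The median of all 124 differences was -0.087. With the size factors of DESeq2 in place of TMM it was -0.351, and 5 miRNAs were called higher and 12 lower. Log2 differences below are on the scaled log2(RPM + 1) scale, which understates those of scarce miRNAs, and single RPM values are as deposited.

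miR-1468 had the largest difference in favour of lung, but it had been singled out as the lung marker from earlier results on these data, so its levels are a description with no test. It stood at 217, 30.8, 112 and 128 RPM in the juvenile, adolescence, adult and aged lung. Over the other 36 libraries it ran from 0 to 64.4 RPM with a median of 8.05, the highest being adult heart. The juvenile, adult and aged lung lay above every one of these 36, and the adolescence lung below 4 of them. Lung was 3.52 above the other organs on the log2 scale, and 3.95 without the adolescence lung. The organ means in RPM were 121.9 in lung, 33.2 in heart, 28.9 in kidney, 13.2 in adrenal and at most 9.13 elsewhere. Set against single organs, the difference ran from 0.92 on the log2 scale against heart and 1.01 against muscle to 5.34 against testes. The testes libraries were shallow: adolescence and aged testes had no read of miR-1468, where 1 read stood for 14.9 and 23.9 RPM. TMM scaling also lowered the testes values, and by RPM testes had a mean of 5.38, beside 5.01 in liver. TMM scaling raised the muscle values 13.4- to 34.4-fold because miR-1 fills those libraries, and by RPM muscle had 2.31.

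The other miRNAs that were higher in lung were shared with 1 or more organs. miR-490, which lies within the gene of the muscarinic receptor CHRM2, stood at 205, 203, 325 and 592 RPM. On the log2 scale it was 2.69 ± 0.425 (SE) above the mean of the other organs (limma, adjusted p = 1.7e-05). In RPM it was not higher: the lung mean of 331 RPM was 5th of the 10 organs, and the mean of the other 9 was 343 RPM. Brain, heart, kidney and liver had means of 425.3 to 988.4 RPM and were not called different from lung, whereas muscle had no read in any library and antler 1.09 RPM. miR-452, whose gene lies within GABRE, stood at 9.56, 49.2, 15.6 and 32.6 RPM, from 10 to 34 reads, and was 2.48 ± 0.507 higher (adjusted p = 0.000263 in limma). Lung was called higher in miR-452 than brain, heart, liver, spleen and testes, while kidney (35.5 RPM), antler (26.2), adrenal (12.4) and muscle (0.376) were not called different from the 26.8 RPM of lung. The call of miR-452 did not hold with the aged stage left out of every organ (2.05, adjusted p = 0.0178 in limma).

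miR-30f, a member of the miR-30 family, stood at 25400, 7659, 27865 and 19151 RPM and was 2.21 ± 0.441 higher (limma, adjusted p = 0.000228). Kidney with 59352 RPM and liver with 26085 RPM had higher means than the 20019 RPM of lung. Within the family the members did not move alike: miR-30c, more abundant in lung at 22260 RPM, differed by -0.01 (adjusted p = 0.973 in limma). miR-3432a stood at 1273, 335, 654 and 964 RPM, the highest mean of the 10 organs (807 ± 403 RPM, SD, n = 4), with adrenal next at 657. Its difference of 1.90 ± 0.333 (limma, adjusted p = 7.9e-05) was called against heart, kidney, liver, muscle and testes but not against adrenal, brain, spleen or antler. Neither miR-30f (1.79, adjusted p = 0.0251 in limma) nor miR-3432a (1.56, adjusted p = 0.0267) was called with the juvenile stage left out.

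let-7b stood at 313740, 78892, 301080 and 346820 RPM as listed, 1.75 ± 0.479 above the other organs (limma, adjusted p = 0.00685). Of single organs adrenal and muscle were called, and brain had the higher mean at 287960 RPM. This was the least secure of the higher calls. It was kept without the adolescence lung (2.18, adjusted p = 0.00275 in limma) but lost without the juvenile (1.58, 0.0512), adult (1.62, 0.0474) or aged lung (1.70, 0.032). In all it was lost under 12 of 25 alternatives, among them the size factors of DESeq2 (1.41, adjusted p = 0.0147 in limma), no minimum of reads (1.92, 0.024) and leaving out adrenal, liver, muscle or testes (1.31 to 1.57). miR-151-5p, which lies within the gene of focal adhesion kinase, stood at 1910, 1736, 2380 and 3675 RPM and was 1.30 ± 0.310 higher (limma, adjusted p = 0.00168). Its call was lost without the adult lung (1.21, adjusted p = 0.0186 in limma) or the aged lung (1.28, 0.0137), and under 6 of 25 alternatives in all. Among these were the size factors of DESeq2 (0.96) and the DESeq2 test (0.95), which put it below the log2 limit of 1, and leaving out liver (0.99) or the juvenile stage (1.20, adjusted p = 0.0295 in limma). miR-26a, for all its abundance, was not called: 2.10 higher, with an adjusted p of 0.0345 in limma, and stage differences of 0.191, 3.997, 3.16 and 1.058 from juvenile to aged.

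**Figure D2:**
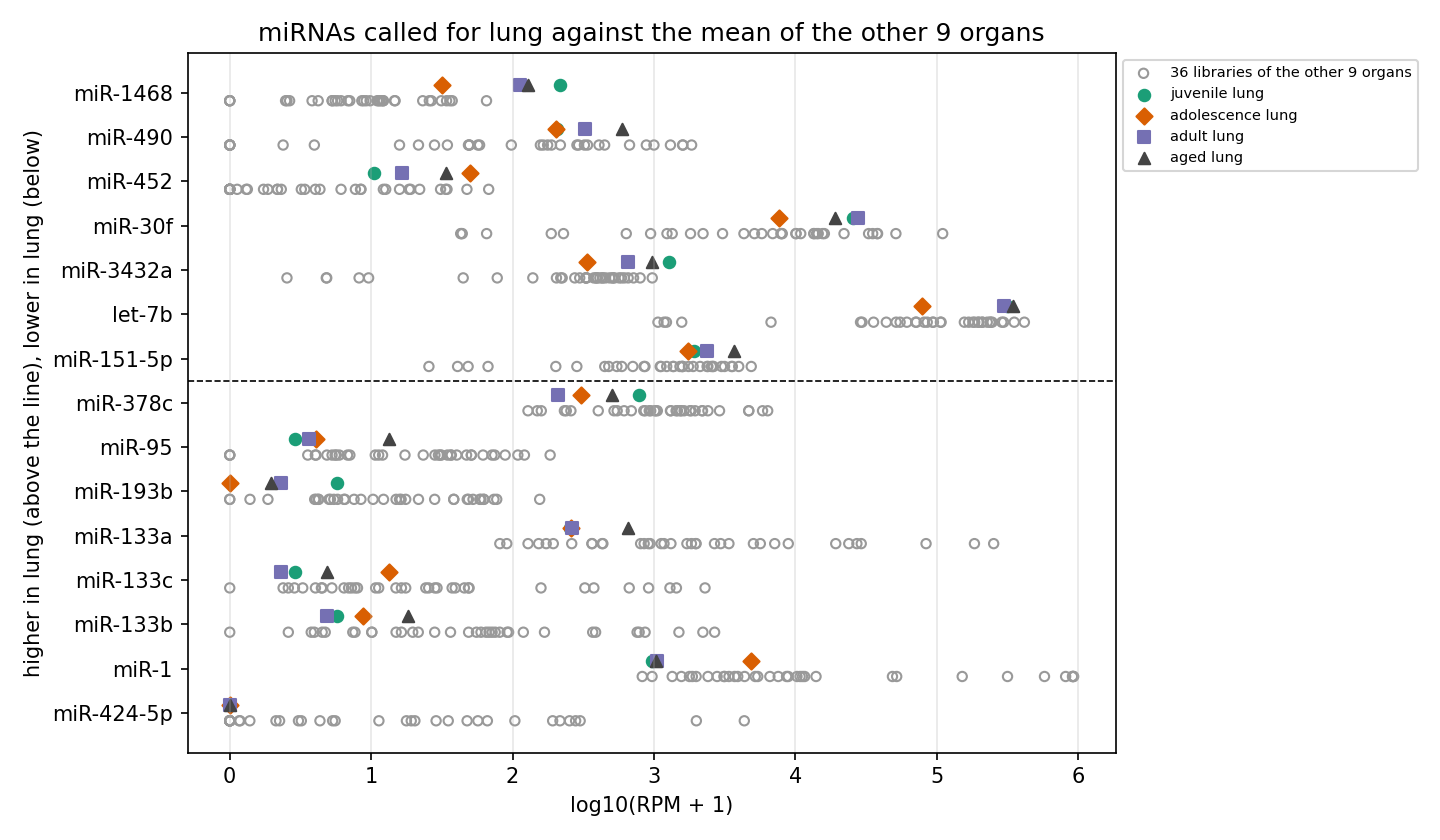
log10(RPM + 1) of the miRNAs called for lung against the other 9 organs (miR-3596, equal to let-7b, not drawn), with the 4 lung libraries as coloured symbols and the other 36 libraries as open circles. For miR-1468 the juvenile, adult and aged lung lie above all 36 circles and the adolescence lung at 30.8 RPM lies among them; miR-424-5p is at 0 in the 4 lungs.

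Of the miRNAs lower in lung, 4 are muscle miRNAs. miR-1, which with miR-133 drives the muscle cell program, stood at 969, 4815, 1047 and 1031 RPM in lung, the lowest mean of the 10 organs at 1965 ± 1900 RPM (SD, n = 4). The other libraries ran from 825 to 928500 RPM with a median of 7082. The difference from the mean of the other organs was -3.20 ± 0.603 (limma, adjusted p = 0.000141). Only heart (-8.94) and muscle (-13.73) were called as single organs. TMM scaling raised the muscle values 13.4- to 34.4-fold, which enlarges the difference from muscle. As deposited, the means of miR-1 were 465060 RPM in heart and 919200 RPM in muscle. miR-133a stood at 253, 260, 261 and 655 RPM, with a difference of -2.56 ± 0.493 (adjusted p = 0.000152 in limma), and miR-133b at 4.78, 7.69, 3.91 and 17.3 RPM, with -2.67 ± 0.507 (0.000141). miR-133c, at most 12.3 RPM in lung, differed by -2.62 ± 0.475 (0.000103). Spleen as well as heart and muscle was called for all 3 forms of miR-133, by -2.91, -2.42 and -2.24 for miR-133a, miR-133b and miR-133c, and brain for miR-133b by -2.97. Without muscle the differences of miR-1 (-2.17, adjusted p = 0.0129 in limma) and miR-133b (-1.90, 0.0101) were no longer called, and without heart that of miR-133a (-1.73, 0.0132). Whether the 3 forms of miR-133 share reads was not tested, so their calls may not be separate.

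The remaining lower miRNAs were scarce in lung. miR-424-5p, a member of the miR-15/16 seed family, had no read in any of the 4 lungs, and 27 of the other 36 libraries listed it. Against a floor of 3 reads per library, 3.57 RPM on average, lung was at least 478-fold lower than testes, 43.2-fold lower than kidney, 24.5-fold lower than adrenal and 12.2-fold lower than antler, the 4 organs called as single organs (limma, adjusted p = 0.000421 against the mean of all 9). The juvenile libraries carried 2 of these bounds, which were 230 for testes and 12.5 for adrenal without them, and adult adrenal itself stood at 3.34 RPM. miR-193b, known from fat cell differentiation, had 5, 0, 1 and 1 reads in the lungs and a mean of 82.3 RPM in liver, 61 in kidney and 42.5 in adrenal. Like miR-424-5p and miR-133c above, it met the minimum of reads through other organs alone. This favours a lower value in lung, so the p values of these miRNAs are given as a description. The difference of miR-193b was -2.52 ± 0.506 (limma, adjusted p = 0.000228). The call was lost without the adolescence stage in all organs (-2.03, adjusted p = 0.0108), and that of miR-424-5p without the juvenile lung (adjusted p = 0.0114 in limma). miR-95 had 2, 2, 2 and 13 reads in lung, a difference of -1.83 ± 0.511 (limma, adjusted p = 0.00771) that was lost under 14 of 25 alternatives, among them total-read scaling (adjusted p = 0.0365) and leaving out the adolescence lung (-1.58, 0.0773), so it is uncertain.

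miR-378c completed the list. It stood at 786, 301, 210 and 505 RPM in lung and differed by -1.37 ± 0.297 (limma, adjusted p = 0.000537). It is the only one of the 16 with a call in both directions against single organs, lower than antler, heart, muscle and spleen (-1.52 to -6.72) and higher than testes (2.07). The -6.72 was against muscle, where TMM scaling enlarges the difference. As deposited, the means of miR-378c were 450 RPM in lung and 1941 RPM in muscle. Members of the miR-378 family, of which miR-378 itself arises within PPARGC1B and acts in energy metabolism, were all below 0 in lung, 4 of 4 tested, but miR-378c alone was called. The call was lost without heart (-1.06, adjusted p = 0.0125 in limma), without muscle (-0.98, 0.0151) and without the adult lung (-1.22, 0.0118). Leaving out the adolescence lung altogether left 15 of the 16 calls, all but that of miR-95.

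Members of the lists were called about as often as miRNAs in general, 7 of 46 (15.2%) against 12.9% of all 124. Of the let-7 family 7 were tested, 6 were above 0 and the 2 called are let-7b under its 2 names. let-7c (10520 RPM, difference 0.39) and let-7a-5p (5982 RPM, 0.45) were not called. Of the miR-30 family 1 of 4 was called higher, of the miR-378 family 1 of 4 lower and of striated muscle miRNAs 3 of 4 lower, beside 6.45% of all tested in each direction. No member was called among fibroblast (5 tested, all above 0 or, with the size factors of DESeq2, all but miR-199c, median 0.49), liver, gut and kidney (4 tested, all below 0, median -1.39), DLK1-DIO3 cluster (6 tested, 5 below 0, median -1.01), white blood cell (2 tested, median 1.68), miR-29 (2), miR-26 (2), miR-17/92 (2), smooth muscle (1), endothelial (1), red cell (1) or neuronal (1) miRNAs. The 5 fibroblast names include miR-199a-3p and its near-identical second name miR-3604, and the 2 of miR-26 are near-identical as well. The median over all tested miRNAs was -0.087. Of the liver, gut and kidney list, miR-192 had a mean of 1529 RPM in lung (570 to 3224), the only member above 8 RPM.

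Against single organs, 190 of 1116 differences were called (17.0%), 83 with lung higher and 107 lower. With scaling to total reads it was 293, 140 higher and 153 lower, muscle alone rising from 29 to 83 and heart from 22 to 37. With TMM brain differed in the most miRNAs, 37, then muscle in 29, heart in 22, antler in 21, adrenal in 20, testes in 19, kidney in 16, liver in 15 and spleen in the fewest, 11. Spleen had the fewest with total reads too, again 11, but muscle then led brain, which had 36. The order by likeness of the whole profile was similar at its ends. The mean Pearson's r of a lung with the libraries of an organ, over 124 miRNAs, was 0.919 for spleen, 0.894 for liver, 0.876 for adrenal and 0.872 for kidney, and lowest for brain (0.776) and muscle (0.763). These r values are across miRNAs, share the abundance order that all organs have, and are given as a description. The 4 lungs had r of 0.887 to 0.979 with one another. Between lung and spleen, 4 miRNAs were higher and 7 lower in lung. miR-1468 (4.09), miR-490 (3.30 ± 0.571) and miR-452 (3.04 ± 0.680) were 3 of the former, and miR-133a, miR-133b, miR-133c and miR-378c (-2.29 ± 0.398) were 4 of the latter.

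Over the 4 stages no miRNA of lung followed a steady course that passed the test. The slope over stage number was called for 0 of 124 miRNAs by limma, with 1 at an unadjusted p below 0.05 and a smallest adjusted p of 0.955. edgeR called 0 (6 unadjusted) and DESeq2 0 (11 unadjusted). The smallest p was that of miR-409a of the DLK1-DIO3 cluster, named for that value: 647, 172, 95.1 and 119 RPM from juvenile to aged, a slope of -0.75 ± 0.288 per stage. Of 102 names with at least 10 reads in at least 1 of the 4 lungs, none rose 2-fold or fell 2-fold at all 3 steps. No minimum of reads was set for a single step of these names, so some of their steps rest on few reads.

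The 2 steps next to adolescence held the most 2-fold moves. Each pair of stages was compared over the names with at least 10 reads in 1 of its 2 lungs. From juvenile to adolescence lung, 66 of 97 compared names (68%) moved at least 2-fold, 29 up and 37 down, and from adolescence to adult 51 of 88 (58%), 25 up and 26 down. From adult to aged it was 21 of 94 (22.3%), and juvenile set directly beside adult gave 34 of 92 (37%), juvenile beside aged 47 of 99 (47.5%) and adolescence beside aged 62 of 97 (63.9%). With scaling to total reads the step from adult to aged rose to 32 names. With 1 library a stage there is no test of these steps. In all, 49 of 102 names (48%) turned at adolescence, 25 down then up and 24 up then down, while 22 made no 2-fold step. The former included let-7b, let-7c (12716, 3225, 8335 and 17809 RPM), miR-30f, miR-574, miR-197 and the fibroblast miRNA miR-214 (3305, 480, 1460 and 2383 RPM). The latter included miR-186, miR-7, miR-1, miR-17-5p of the growth-promoting miR-17/92 cluster (359, 2364, 680 and 700 RPM) and miR-142-5p. The 22 names with no 2-fold step included miR-145, miR-199a-3p, miR-199a-5p, miR-30c, miR-151-5p, miR-342 and miR-664b.

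Measured against the other 3 lungs, the adolescence lung departed the most of the 4, followed by the juvenile lung. It lay past 2-fold of their mean in 70 of 124 miRNAs (56.5%), against 61 for the juvenile, 25 for the adult and 35 for the aged lung taken the same way. The median size of its differences was 1.27 on the log2 scale, against 0.96, 0.48 and 0.57. In 81 miRNAs it lay outside the range of the other 3, above in 43 and below in 38. The juvenile lung did so in 70, the adult in 35 and the aged in 45. Some lung is always the highest and some the lowest, so such counts are large even with no departure. Among all 40 libraries, each set beside the other 3 of its organ, the median size of difference of the adolescence lung ranked 4th. It came after adolescence brain, adolescence heart and aged spleen, and the juvenile lung ranked 8th. A departure of this size was therefore not confined to lung. Its depth of 650219 reads was the lowest of the 4 lungs, and the part of depth in its departure was not tested.

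The test of single miRNAs called 1 of 124 (0.806%) in the adolescence lung, with 9 at an unadjusted p below 0.05; none was called in the other 3 lungs (2, 1 and 2 unadjusted). As the adolescence lung is 1 library, it was assumed to vary as the rest do, with the spread taken from all organs. The called name was miR-2904, which had 61, 0, 19 and 229 reads, or 58.3, 0, 24.8 and 220 RPM, and was lower by -6.07 ± 1.30 on the log2 scale (limma, adjusted p = 0.00426). Against the floor of 3 reads the adult lung was at least 5.37-fold, the juvenile 12.6-fold and the aged 47.6-fold higher. All 36 other libraries had reads of miR-2904, from 0.308 to 510 RPM with a median of 52.6. With stage as a replicate block, which sets adolescence in lung beside adolescence elsewhere, the difference was -5.49 (adjusted p = 0.0326 in limma) and 0 miRNAs were called, 5 unadjusted. edgeR (9 unadjusted) and DESeq2 (18 unadjusted) called 0, and limma called 0 without the aged lung (adjusted p = 0.0362 for miR-2904).

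The largest other differences were not called and are given as values. Upward they were miR-1277 (0, 18.5, 0 and 1.92 RPM from juvenile to aged), miR-135a (0.956, 80, 7.82 and 17.3), miR-135b (0.956, 33.8, 1.3 and 7.68) and miR-142-5p, a miRNA of blood cells (18.2, 369, 49.5 and 91.2). In all 4 the adolescence lung was the highest and the aged lung next. Downward they were miR-328 (15.3, 0, 9.12 and 13.4 RPM), miR-423-3p (261, 9.23, 65.2 and 201) and miR-433 of the DLK1-DIO3 cluster (243, 10.8, 37.8 and 74.8). Here the adolescence lung was the lowest, with 0, 6 and 7 reads. Of the abundant names, miR-26a differed by 2.82, miR-7 by 2.86 (3951, 14563, 1793 and 1985 RPM) and let-7b by -1.75, with adjusted p of 0.432 for miR-26a and miR-7 in limma. miR-1468 differed by -1.95.

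Several families split within this departure. In the let-7 family let-7b, let-7c, let-7a-5p and let-7d were lower in the adolescence lung by 1.24 to 1.75 in size (-1.75, -1.67, -1.73 and -1.24), whereas let-7i (0.74) and miR-98 (1.78) lay above 0. In the miR-30 family miR-30f (-1.37) lay below, as did miR-30c (-0.31) except with the size factors of DESeq2, and miR-30a-5p (1.43) and miR-30b-5p (1.63) above. Among white blood cell miRNAs miR-142-5p lay at 3.31 and miR-150 at -1.53. Of fibroblast miRNAs miR-214 was at -1.97 and miR-199a-5p at 0.85, so a single cell type list did not move as 1 group. Other lists lay mostly on 1 side: 5 of 6 tested members of the DLK1-DIO3 cluster below 0 (median -1.18, and 6 of 6 with total reads), and the 2 of miR-17/92 (1.60) and the 2 of miR-29 (1.38) above. The median over all tested miRNAs was -0.048, and -0.264 with total reads or 0.282 with the size factors of DESeq2. None of these miRNAs was called.

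**Figure D3:**
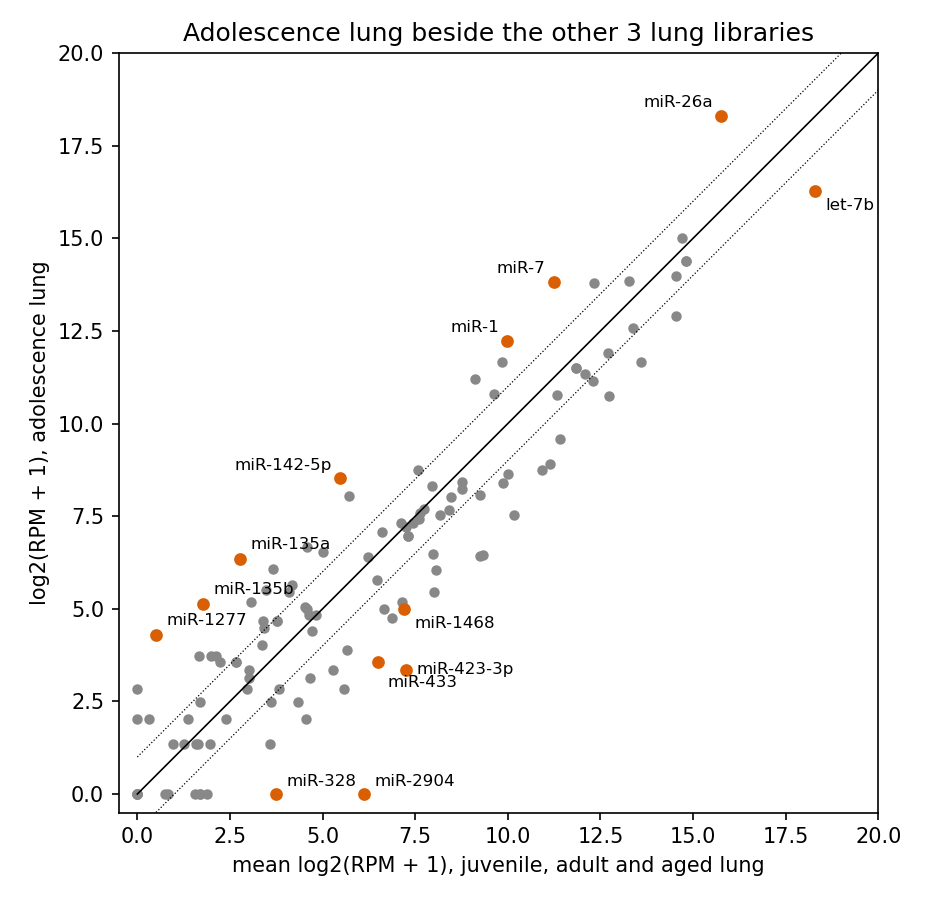
log2(RPM + 1) of 124 miRNAs in the adolescence lung against the mean over the juvenile, adult and aged lung, with the line of equality and dotted lines at a log2 difference of 1. miR-26a lies far above the line and let-7b below it, and miR-2904 and miR-328 lie at 0 in the adolescence lung.

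The profile of the adolescence lung was nearest to a library of another organ, aged spleen (r = 0.95), ahead of adult lung (0.934), aged lung (0.919) and juvenile lung (0.887). For the other 3 lungs the nearest library was a lung (0.966 to 0.979). Their r with the nearest spleen library was as high, at 0.959 in the juvenile lung and 0.95 in the adult and aged lung. The adolescence lung was thus further from the other lungs, not closer to spleen than they were. The adolescence lung and aged spleen also shared the trade of let-7b for miR-26a. miR-26a made up 46.5% of the reads of juvenile brain and 36% of those of aged spleen, next to the 56.9% of the adolescence lung, and no other library exceeded the 17.5% of adult lung. The ratio of let-7b to miR-26a was 0.243 in the adolescence lung, 0.212 in aged spleen and 0.296 in juvenile brain, against 6.52, 3 and 9.84 in the other lungs. A low ratio was not confined to these, since the 4 muscle libraries (0.136 to 0.213), where both miRNAs held under 1% of the reads, and adolescence heart (0.279) were as low.

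**Figure D4:**
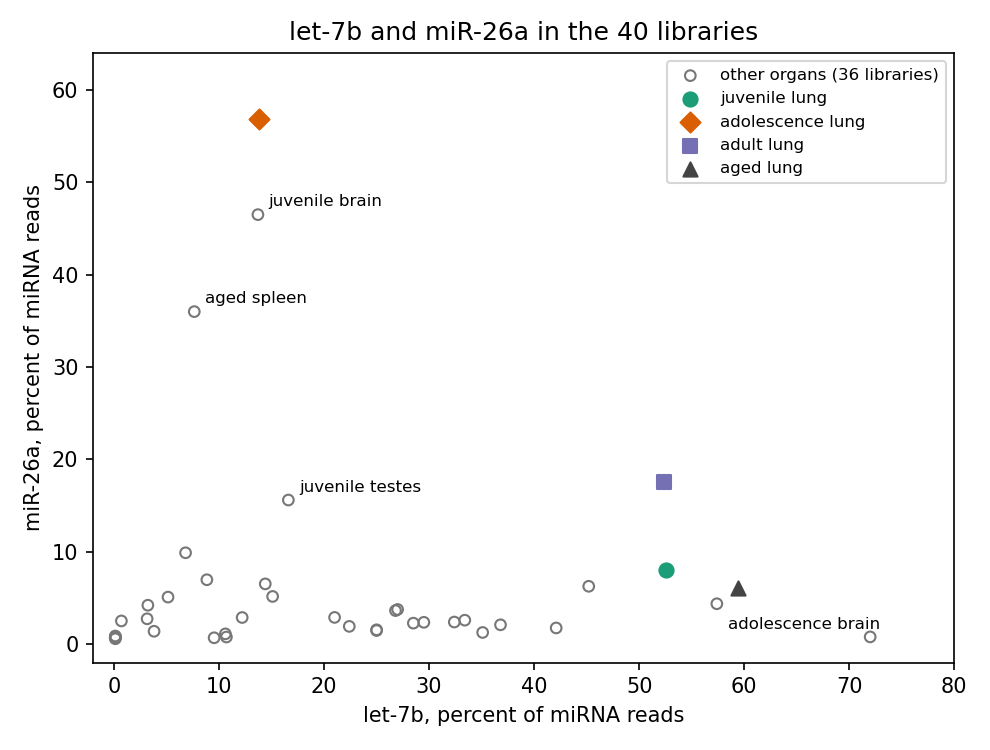
Percent of miRNA reads held by let-7b (x axis) and miR-26a (y axis) in the 40 libraries, near-identical names counted once, with the lungs as coloured symbols. The adolescence lung, juvenile brain and aged spleen stand apart with miR-26a at 56.9%, 46.5% and 36%, and the other 3 lungs lie at a let-7b share of 52.4% to 59.4%.

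The likeness went beyond these 2 miRNAs. When each library of another organ was set beside the other 3 of that organ, its departures over 124 miRNAs correlated with those of the adolescence lung at r = 0.811 in aged spleen, 0.761 in adolescence kidney, 0.748 in adolescence adrenal, 0.718 in juvenile brain, 0.715 in adolescence heart and 0.639 in adolescence testes. No library is shared between lung and these organs, but all adolescence libraries came from the same 3 deer as the adolescence lung. Aged spleen and juvenile brain came from other deer. Within an organ the 4 departures sum to 0, so high values bring low ones with them. Of the 43 miRNAs that were above the other lungs in the adolescence lung, 40 were above 0 in aged spleen, 39 in adolescence adrenal and 38 in adolescence heart, where 52.4%, 52.4% and 65.3% of all 124 were above 0. Of the 38 that were below, 35 were below 0 in aged spleen and 24 in adolescence heart, beside 46.8% and 33.1% of all 124. Such a count alone says little: adolescence muscle had 34 of the 43 above 0, but 83.9% of all 124 as well, and only 2 of the 38 below. Juvenile adrenal had 39 and 19, with r = 0.486. The adolescence libraries were not alike, since those of liver (0.08), antler (0.04), muscle (-0.02), spleen (-0.33) and brain (-0.61) did not follow. miR-142-5p departed by 3.31 in the adolescence lung, 6.33 in aged spleen, 3.67 in juvenile brain and 3.14 in adolescence heart, and miR-423-3p by -3.65, -3.15, -1.83 and -2.56. miR-2904 was less alike, with -6.07 in lung, -1.40 in aged spleen, -0.53 in juvenile brain and -1.52 in adolescence heart. The 6 libraries with the highest r held 67231 to 2559700 reads, both below and above the adolescence lung, and the part of depth was not tested.

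**Figure D5:**
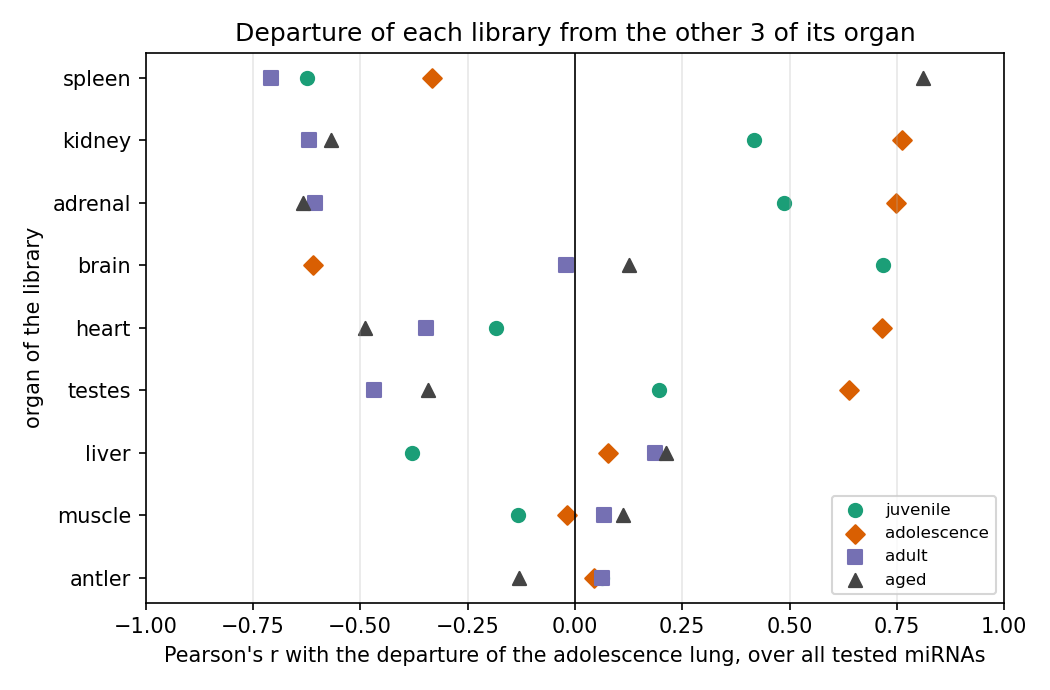
Pearson's r over 124 miRNAs between the departure of the adolescence lung from the other 3 lungs and the departure of each of the 36 other libraries from the other 3 of its organ, by organ and stage. Aged spleen lies highest at 0.811, with the adolescence libraries of kidney, adrenal and heart and juvenile brain above 0.7, while adult spleen lies lowest at -0.707.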

How the data were processed

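The authors trimmed the small RNA reads, set other RNA classes aside, matched the rest to miRBase 22.0 and predicted further miRNAs with miRDeep 2.0.5. The deposited RPM values (headed tpm) are reads scaled to the miRNA total of the library, not divided by length. Dividing by the value of 1 read gave whole numbers for 7982 of 7982 values (tolerance 0.01), which were used as reads. Groups follow the organ and stage in the sample titles.

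limma 3.58.1 (R 4.3.3, trend in the prior variance) was run on log2(RPM + 1) with TMM factors from edgeR 4.0.16. The 124 known names that reached 10 reads in 4 or more libraries were tested, and p values were adjusted by Benjamini-Hochberg. Library depth ran from 41866 reads. Known names listed in antler alone (31, with 690 reads) were left out, and the antler reads listed under miR-148c were taken as those of miR-2957. Near-identical names (7 pairs) had totals within 1% and r above 0.999. Predicted, numbered miRNAs were not used here.

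Stage was the replicate block, as the organs of a stage came from the same deer: the deviations of the lungs correlated with those of the other organs of their stage at r = 0.247, 0.587, 0.403 and 0.554. The juvenile lung correlated slightly more with the adult stage of the other organs (0.268), with which the aged lung correlated at 0.404. Alternatives were edgeR and DESeq2 1.42.0 on the reads, other scalings, filters and pseudocounts, and leaving out libraries, stages and organs. The scripts were tested on simulated data. The named miRNAs were all those called, the 10 most abundant, the largest differences of the adolescence lung and the leading members of each list. These rules, the lists and the choice of lung were made with earlier results of these data known, except the likeness of departures, which was chosen after seeing the data. No replicate libraries exist within a stage, so p values rest on the spread between stages and organs.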

Additional observations from a re-analysis of the deposited data

Results flagged for a closer look

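In 2 of the 30 named miRNAs whose values differ between lungs, 1 lung stood far from the other 3. Chance alone flags about 1 in 20 groups, but that rate does not hold for this set. Some names, miR-328 among them, were chosen for their large difference in the adolescence lung, and others share their reads with a second name. For miR-30c it was the adult lung, at 15.05 on the scaled log2 scale against 14.25 in the juvenile, 14.19 in the adolescence and 14.19 in the aged lung, a gap of 0.925 of the range. For miR-328 it was the adolescence lung with no read, at 0 against 3.75, 3.53 and 3.79, a gap of 0.93 of the range. With scaling to total reads the gap of miR-30c was 0.341, and that of miR-328 shrank to about the limit above which 1 of 4 samples counts as apart.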

How the results depend on the processing

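Of the 16 miRNAs called for lung against the other 9 organs, none reversed under any alternative, and miR-490 was called under all 25. So were miR-1468 and miR-133c. However, miR-1468 had been chosen for its level and its call is no test, and miR-133c met the minimum of reads through other organs alone. The count ran from 11 (without muscle, or without the juvenile stage) to 24 (DESeq2). The size factors of DESeq2 moved the median of all differences to -0.351 and the split to 5 higher and 12 lower, and the DESeq2 test gave 7 and 17, liver left out 5 and 13, and testes left out 6 and 15. Without the replicate block 15 were called. For single organs scaling to total reads gave 293 calls, 140 higher and 153 lower. For the adolescence lung, the size factors of DESeq2, edgeR, DESeq2, a pseudocount of 10 and the replicate block gave 0 calls (12, 9, 18, 11 and 5 unadjusted), no minimum of reads gave 3, and leaving out other lungs gave 0 to 1. The slope gave 2 calls with no minimum of reads and 0 to 1 with a lung left out. The cause of these shifts was not tested. Known names in lung numbered 117 when thinned to the 41866 reads of the smallest library and 120 with at least 10 reads. At 100 reads the neighbouring stages gave 37, 26 and 10 moves, at a 4-fold limit 36, 17 and 4, and with total reads adult to aged gave 32. The r of departures with aged spleen was 0.813 with total reads, an alternative chosen after seeing the data.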
